A study of Oryza sativa with 12 samples.

Results

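Rice gene models that carry the lateral organ boundaries (LOB) domain were described in roots and shoots of a line that overexpresses Zaxinone Synthase (ZAS) and of its wild type. The members were all models whose description in the deposited table lists the Pfam LOB domain, which gave 37 of 57501 models. By protein name, 27 were class I LOB proteins, 5 were class II LOB proteins, 4 had no protein name and 1 was named a plasma membrane calcium-transporting ATPase. Names in the table are those of the closest known protein, and LBD is written below for "LOB domain-containing protein". The LOB models share 17 distinct names, so several models carry the same one and the locus identifier is given each time.

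LOB domain proteins are transcription factors found in plants, and bind DNA through a zinc finger-like motif at the start of the domain. Class I members act where lateral organs form: in Arabidopsis and rice, auxin response factors switch on LBD genes that start lateral and crown roots, and in Arabidopsis and maize, relatives of LBD6, also called AS2 for the asymmetric leaves of its mutant, keep meristem genes of the KNOX family silent in leaves. Class II is the smaller class, and is known from Arabidopsis for metabolism: LBD37, LBD38 and LBD39 repress nitrate-responsive and anthocyanin genes, and LBD41 is among the genes that low oxygen induces.

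Polyadenylated RNA was sequenced from 4 groups of 3 libraries each: OX6 root, WT root, OX6 shoot and WT shoot. OX6 is a line of rice overexpressing ZAS, the enzyme that cleaves an apocarotenoid to give the growth regulator zaxinone, and WT is the japonica cultivar Nipponbare. Plants of both genotypes had grown hydroponically and were 21 days old. The promoter that drives ZAS in OX6 is not given in the sources used here. Because OX6 is 1 line, effects of ZAS cannot be told apart from other differences between OX6 and its wild type. The labels do not say whether replicates came from separate plants, and the p-values therefore reflect library-to-library spread that may be technical.

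Levels are given as CPM, counts scaled to a common library size after TMM normalization over the 12 libraries, and as CPM per kb of gene length where different genes are set side by side. Total counts were 32269044 to 62910092 per library. From background knowledge, ZAS is LOC_Os09g15240, which had 304 to 317 CPM in OX6 roots, 2.54 to 2.90 in WT roots, 1676 to 1861 in OX6 shoots and 0.175 to 0.489 in WT shoots, so the libraries matched their genotype labels. The organ labels were checked against marker genes. The 18 models of chlorophyll a-b binding proteins and the Rubisco small subunit summed to 34.6 to 63.2 CPM in OX6 roots, 56.5 to 91.1 in WT roots, 125700 to 132600 in OX6 shoots and 150800 to 167900 in WT shoots, with 2 of the 18 at 0 in each root group and 1 in each shoot group. This sum was lower in OX6 shoots than in WT shoots without overlap, and its part in the shoot differences below was not tested. The 7 Casparian strip and silicon channel models summed to 2641 to 3356 CPM in OX6 roots, 2915 to 3464 in WT roots, 14.8 to 16.9 in OX6 shoots and 16.9 to 24.1 in WT shoots. The meristem gene OSH1 was at 7.22 to 11.8 CPM in OX6 shoots and 6.64 to 14.2 in WT shoots, and at 0 to 0.0233 CPM in the 6 root libraries. In bulk samples, fewer cells of a type and less RNA per cell cannot be told apart.

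The 37 models lay on 10 chromosomes, with 13 on chromosome 1 and 9 on chromosome 3, and 23 had a gene length below their genomic span, meaning that they hold introns. A count was found for 34 models in some library, but 9 of these had between 1 and 60 counts over the 12 libraries together. The models LOC_Os01g39180, LOC_Os01g39220 and LOC_Os02g48270 had 0 counts in every library. A cluster of 6 members stood within 120644 bases of chromosome 1 (21944097 to 22064740) and had 86 counts in all, with at most 14 in 1 library. Levels thus differed widely within the family, as the map of levels by library shows.

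**Figure D1:**
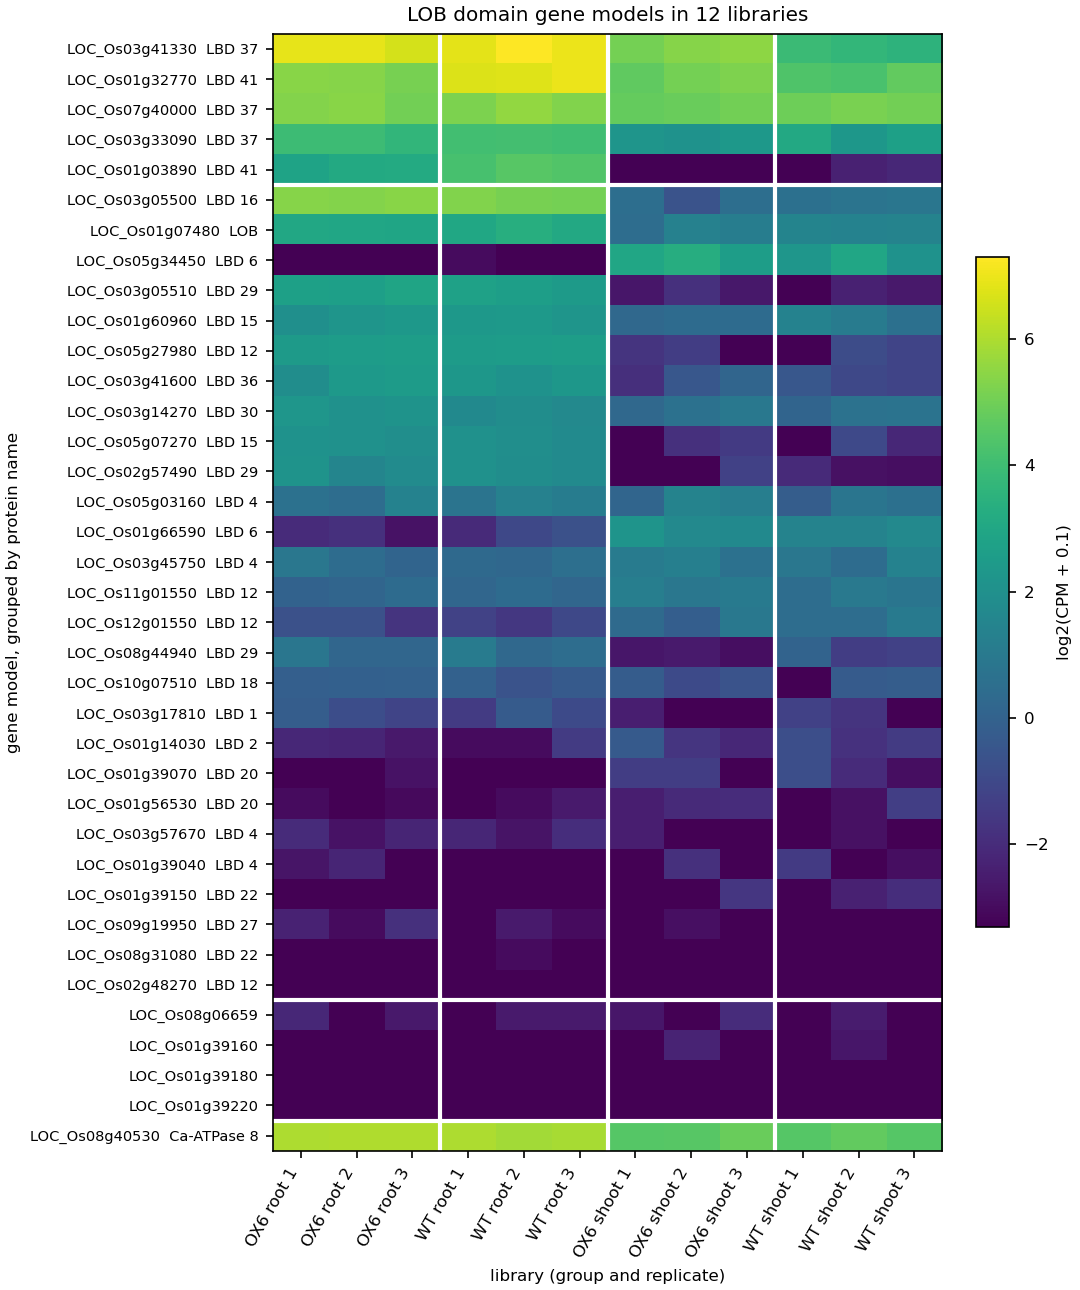
Level of each LOB domain model (rows) in each of the 12 libraries (columns, by group and replicate), as log2(CPM + 0.1) on a colour scale. White lines separate the groups and, from top to bottom, class II models, class I models, models with no protein name and the ATPase model. LOC_Os01g32770 (LBD41), a class II model, is darker in the OX6 root columns (35.0 to 42.4 CPM) than in the WT root columns (106 to 127 CPM).

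A few genes led the family in each group. In OX6 roots, the order by level was LOC_Os03g41330 (LBD37) at 96.2 ± 10.8 CPM per kb (SD, n = 3, as in all such values), LOC_Os03g05500 (LBD16) at 49.96 ± 1.49, LOC_Os07g40000 (LBD37) at 39.97 ± 5.3 and LOC_Os01g32770 (LBD41) at 26.1 ± 2.6. In WT roots, LOC_Os03g41330 stood at 114 ± 18 CPM per kb, LOC_Os01g32770 at 75.2 ± 7.44, LOC_Os03g05500 at 43.4 ± 3.02 and LOC_Os07g40000 at 42.6 ± 5.84. The last pair did not differ beyond its spread in WT roots. LOC_Os01g32770 was thus behind 3 other LOB models in OX6 roots and behind 1 in WT roots.

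In OX6 shoots, LOC_Os03g41330 at 34.3 ± 5.23 CPM per kb and LOC_Os07g40000 at 31.2 ± 2.61 did not differ beyond their spread, and LOC_Os01g32770 followed at 21.6 ± 3.8. In WT shoots, LOC_Os07g40000 led at 34.7 ± 2.62 CPM per kb, ahead of LOC_Os01g32770 at 14.6 ± 2.6 and LOC_Os03g41330 at 11.2 ± 1.47, whose levels lay within their joint spread. LOC_Os05g34450 (LBD6), a shoot gene, was at 6.598 ± 1.6 CPM per kb in OX6 shoots and 4.70 ± 1.57 in WT shoots. The third LBD37 model, LOC_Os03g33090, was at 4.34 ± 0.342 CPM per kb in OX6 shoots and 6.18 ± 1.68 in WT shoots. LBD6 was thus above this LBD37 model in OX6 shoots and below it in WT shoots, in WT by less than their spread. The first class I model in roots was a root-initiation homologue (LBD16) and in shoots a leaf-polarity homologue (LBD6).

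Summed over the 36 LOB models without the ATPase model, the family reached 299.5, 296.8 and 270.0 CPM per kb in the OX6 root libraries, against 343.2, 392.4 and 361.6 in the WT root libraries. In shoots it summed to 103, 121 and 129 CPM per kb in the OX6 libraries, against 88.3, 92.8 and 91.9 in the WT libraries. OX6 was thus below WT in each root library and above it in each shoot library. Class II models made up 63.7 ± 3.32% of the sum in OX6 roots, 73.4 ± 2.42% in WT roots, 77.6 ± 1.61% in OX6 shoots and 73.4 ± 2.32% in WT shoots. The sum of the class I models was 104 ± 3.72 CPM per kb in OX6 roots, 96.9 ± 3.96 in WT roots, 26.2 ± 2.32 in OX6 shoots and 24.2 ± 2.63 in WT shoots. These sums are a description and were not tested.

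The comparison of OX6 with WT, made within each organ, asked how ZAS overexpression relates to the transcriptome, and few LOB models differed. A gene is called where its p-value from edgeR's quasi-likelihood test, adjusted by the Benjamini-Hochberg method over all genes tested, is under 0.05. In roots, the 2 models named LBD41 fell in OX6 and no member was called higher, of 22 members tested. LOC_Os08g40520, named LBD12 but listed without the domain and so not a member, was called higher in OX6 roots. That call was lost in 1 fit of the 12 libraries, and its values are given under the other observations. Over all genes tested in roots, 2.83% were called, 1.19% higher and 1.64% lower. In shoots, LOC_Os03g41330 (LBD37) and LOC_Os01g32770 (LBD41) rose in OX6 and no model was called lower, of 17 tested. Over all genes tested in shoots, 5.64% were called, 3.18% higher and 2.46% lower.

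The called members were all class II, which had 2 of 5 tested models called in roots and 2 of 4 in shoots. Of the class I members, which do not include LOC_Os08g40520, 0 of 16 tested in roots and 0 of 12 tested in shoots were called. At an unadjusted p under 0.05, 2 members were higher and 3 lower in roots, and 2 were higher and 1 lower in shoots. DESeq2 and limma-voom each called 2 lower and 0 higher in roots and 2 higher and 0 lower in shoots. The median log2 fold change (OX6 over WT) of the tested members was -0.035 in roots, against 0.0024 over all genes, and 0.12 in shoots, against -0.0057 over all genes. Counts were too low for a test of 15 members in roots and 20 in shoots, and 13 members were tested in neither organ.

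**Figure D2:**
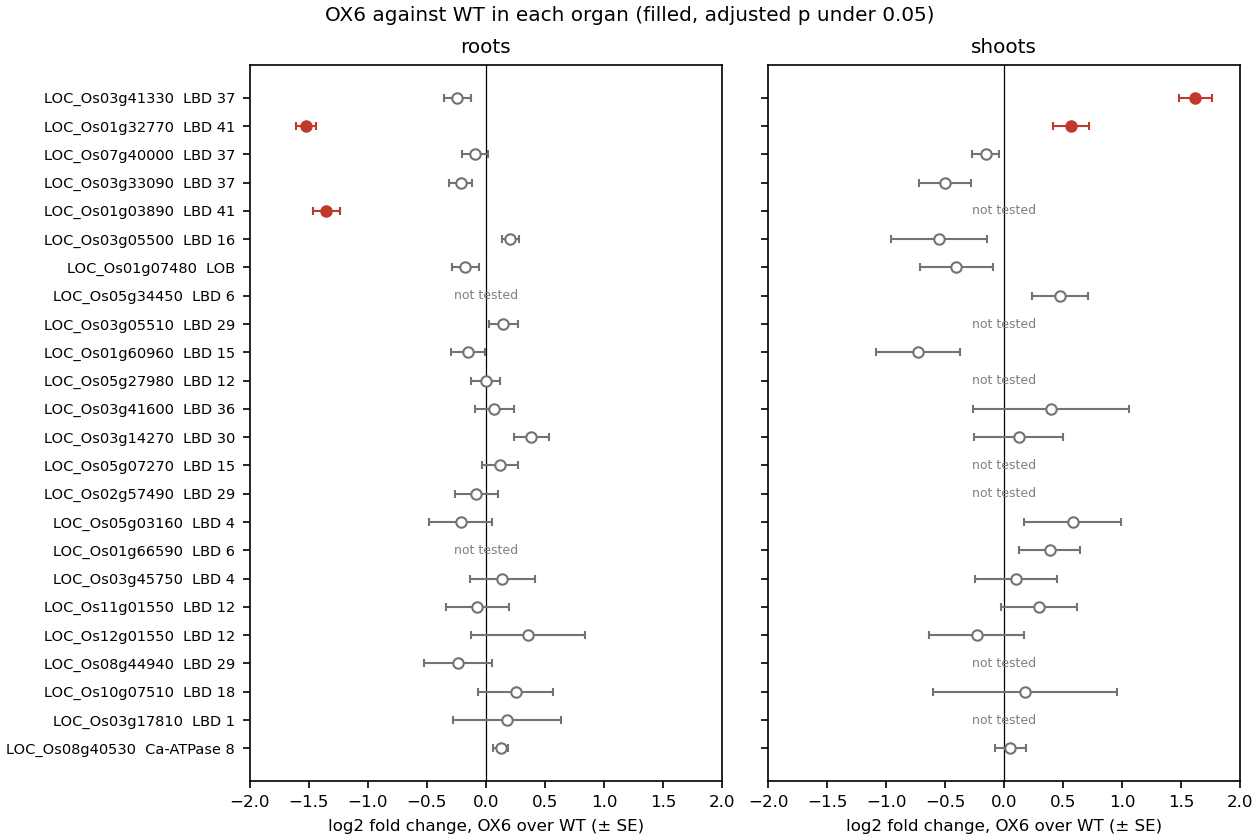
Log2 fold change of OX6 over WT (points) with its standard error (bars) for each LOB domain model tested in roots (left panel) or shoots (right panel). Filled points have an adjusted p under 0.05. The 2 LBD41 models stand alone on the left in roots at -1.52 and -1.35, LOC_Os03g41330 stands apart on the right in shoots at 1.62, and the points that were not called lie between -0.24 and 0.39 in roots and between -0.73 and 0.58 in shoots.

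LOC_Os01g32770 (LBD41; chromosome 1, 17975816 to 17977327, minus strand), a homologue of the low-oxygen gene of Arabidopsis, had the largest fold change of the 22 members tested in roots. It was at 42.4, 41.1 and 35.0 CPM in the OX6 root libraries, against 106, 109 and 127 CPM in the WT root libraries. The highest OX6 root library was thus well below the lowest WT root library. The level fell 2.88-fold in OX6 roots (log2 fold change -1.52, SE 0.0852, adjusted p = 5.47e-08).

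The same gene went the other way in shoots, by less and with a less stable call. LOC_Os01g32770 was at 26.4, 33.5 and 37.8 CPM in the OX6 shoot libraries, against 20.6, 19.0 and 26.5 CPM in the WT shoot libraries. The lowest OX6 library lay just under the highest WT library, so the groups overlapped. The gene rose 1.48-fold in OX6 shoots (log2 fold change 0.56, SE 0.149, adjusted p = 0.0322, with a range of 0.000495 to 0.215 over the alternatives). It was no longer called without OX6 shoot replicate 2 (log2 fold change 0.54), OX6 shoot replicate 3 (0.44), WT shoot replicate 1 (0.52) or WT shoot replicate 2 (0.47).

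LOC_Os01g03890 (chromosome 1, 1657315 to 1658388, plus strand), the other model named LBD41, was a root gene. It was at 7.07, 8.73 and 9.02 CPM in the OX6 root libraries, against 18.4, 23.5 and 21.5 CPM in the WT root libraries, with no overlap. It fell 2.55-fold in OX6 roots (log2 fold change -1.35, SE 0.116, adjusted p = 2.95e-06), close in size to the fall of LOC_Os01g32770. In shoots it had 0 counts in the 3 OX6 libraries and 0, 5 and 4 counts in the WT libraries, and could not be tested. Its level in OX6 roots was at least 264-fold that in OX6 shoots, taking 3 counts over the OX6 shoot group as the floor. In WT it was 266-fold higher in roots than in shoots, with a 95% counting interval of 140 to 582 that covers counting error only.

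**Figure D3:**
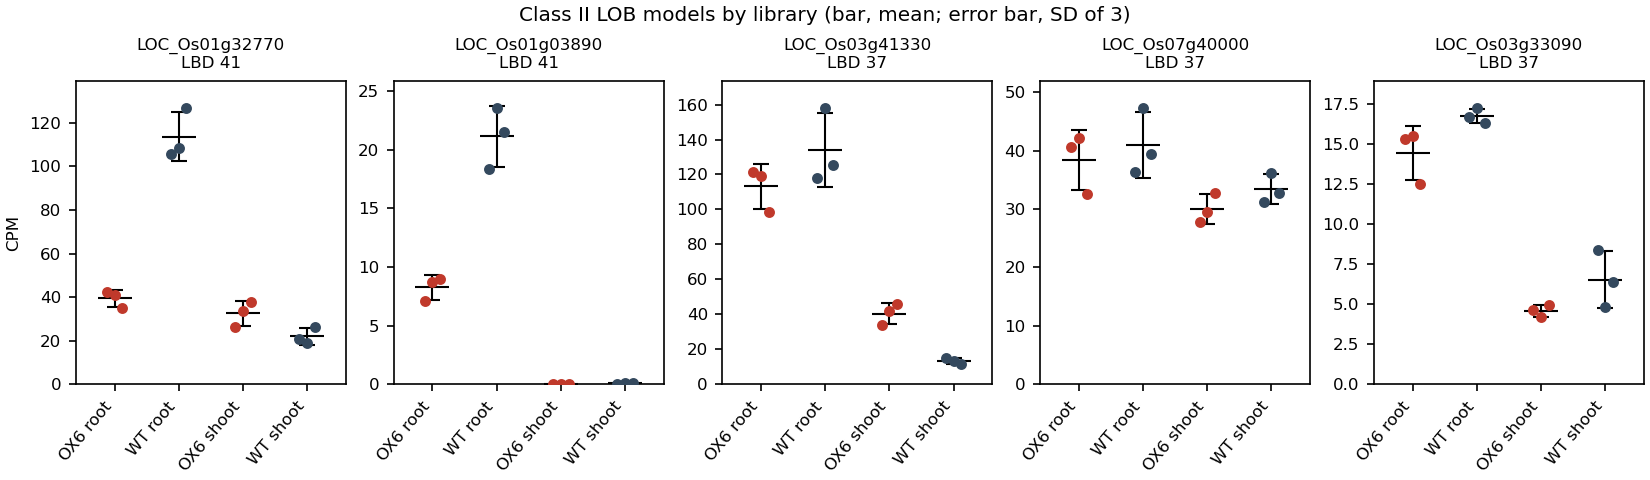
CPM of the 5 class II LOB models in each library (points), with the mean (long bar) and SD (error bar) of each group of 3, each panel with its own axis from 0. The 2 models named LBD41 are lower in OX6 roots than in WT roots, and LOC_Os03g41330 is higher in OX6 shoots (33.6 to 45.6 CPM) than in WT shoots (11.5 to 15.0 CPM). For LOC_Os07g40000 the OX6 and WT points overlap in both organs.

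Among the LBD37 homologues, whose Arabidopsis namesake represses nitrate-responsive genes, 1 of 3 differed between the genotypes. LOC_Os03g41330 (chromosome 3, 22976955 to 22979936, minus strand) was at 33.6, 41.9 and 45.6 CPM in the OX6 shoot libraries, against 15.0, 13.0 and 11.5 CPM in the WT shoot libraries. Each OX6 shoot library had more than the highest WT shoot library. It rose 3.07-fold in OX6 shoots (log2 fold change 1.62, SE 0.139, adjusted p = 9.57e-07). In roots it had 122, 119 and 98.5 CPM in the OX6 libraries, against 118, 158 and 126 CPM in the WT libraries, and the groups overlapped. The root difference did not pass the test (log2 fold change -0.24, SE 0.115, adjusted p = 0.406).

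LOC_Os07g40000 (LBD37; chromosome 7, 23996515 to 23997565, plus strand) was present at like levels in the 4 groups. It was at 40.5, 42.1 and 32.6 CPM in the OX6 root libraries, against 36.3, 47.2 and 39.4 CPM in the WT root libraries. In shoots it had 27.8, 29.4 and 32.7 CPM in the OX6 libraries, against 31.3, 36.2 and 32.7 CPM in the WT libraries. The groups overlapped in both organs, with log2 fold changes of -0.09 (SE 0.111, adjusted p = 0.807) in roots and -0.16 (SE 0.114, adjusted p = 0.515) in shoots.

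LOC_Os03g33090 (LBD37; chromosome 3, 18935192 to 18936341, minus strand) had lower means in OX6 in both organs without passing the test. It was at 15.3, 15.5 and 12.5 CPM in the OX6 root libraries, against 16.7, 17.2 and 16.4 CPM in the WT root libraries. In shoots it was at 4.61, 4.22 and 4.94 CPM in the OX6 libraries, against 8.39, 4.86 and 6.38 CPM in the WT libraries. The root groups did not overlap and the shoot groups did. Its log2 fold change was -0.21 (SE 0.0946, adjusted p = 0.324) in roots and -0.50 (SE 0.222, adjusted p = 0.227) in shoots.

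Whether the genotype difference itself differed between the organs was tested as an interaction in 1 fit of the 12 libraries, as the root log2 fold change minus the shoot log2 fold change. Of 25 members tested, 2 were called, both with a negative difference, while 1.97% of all genes tested were called, 0.692% with a positive and 1.28% with a negative one. These were LOC_Os01g32770 (difference -2.09, SE 0.194, adjusted p = 9.72e-06) and LOC_Os03g41330 (difference -1.86, SE 0.191, adjusted p = 2.69e-05). The sign is negative because OX6 stood lower against WT in roots than in shoots. Each kept its direction and its call in the 19 alternatives tried, with differences of -2.21 to -1.97 for LOC_Os01g32770 and -1.94 to -1.72 for LOC_Os03g41330. DESeq2 called 2 further members, LOC_Os03g05500 (LBD16, 0.77, adjusted p = 0.0361) and LOC_Os08g44940 (LBD29, 3.05, adjusted p = 0.0345). Over the other alternatives their adjusted p reached 0.355 and 0.244.

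The same difference can be read as a narrowing of the organ contrast in OX6. LOC_Os01g32770 was 1.21-fold higher in roots than in shoots in OX6 (log2 fold change 0.28, SE 0.136, adjusted p = 0.0757), and the OX6 root and shoot libraries overlapped. In WT it was 5.17-fold higher in roots than in shoots (log2 fold change 2.37, SE 0.142, adjusted p = 5.72e-11). The OX6 contrast was called without OX6 root replicate 3 (0.36), without OX6 shoot replicate 3 (0.40), with upper-quartile scaling (0.43) and in a fit of the 6 OX6 libraries (0.29), and it stayed far below the WT contrast in each. LOC_Os03g41330 was 2.80-fold higher in roots than in shoots in OX6 and 10.2-fold higher in WT (adjusted p = 1.69e-08 and 5.38e-13).

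Across the family, most tested members stood higher in roots than in shoots. In OX6, 16 of 25 members were called higher in roots and 4 lower. Over all genes tested 73.8% were called in OX6, 37.3% higher in roots and 36.5% lower. In WT, 16 of 25 were called higher in roots and 3 lower, while over all genes 73.0% were called, 37.6% higher and 35.4% lower. The calls agreed in both genotypes for 15 members higher and 3 members lower in roots. The median log2 fold change of root over shoot was 1.57 in OX6 and 1.37 in WT, against 0.029 and 0.048 over all genes. A member with reads in a single organ enters the test through that organ, and 12 members had too few counts to be tested, so these numbers describe the tested members and not the family.

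**Figure D4:**
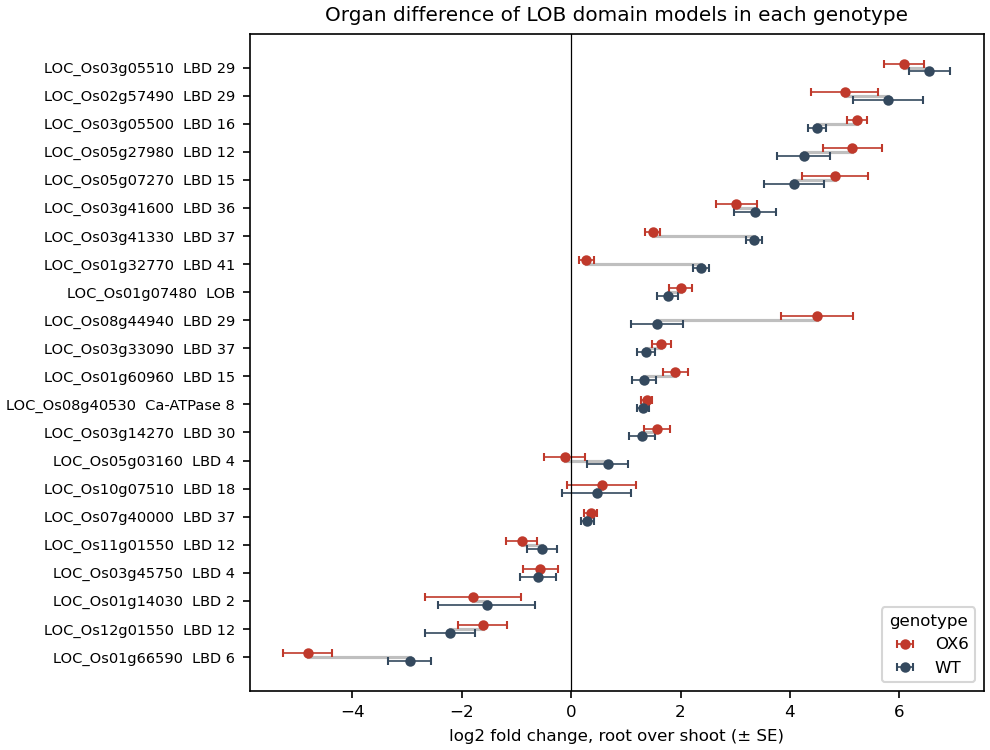
Log2 fold change of root over shoot (points) with its standard error (bars) in OX6 and in WT for 22 LOB domain models (LOC_Os01g03890, LOC_Os05g34450 and LOC_Os03g17810, near 0 counts in a group, are left out), joined by a grey line per model and sorted by the value in WT. The upper models, from LOC_Os03g05510 to LOC_Os03g14270, lie on the root side in both genotypes and LOC_Os01g66590 lies farthest on the shoot side. The OX6 and WT points of LOC_Os01g32770 (0.28 and 2.37) and of LOC_Os03g41330 (1.49 and 3.35) are far apart for their standard errors.

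Homologues of the auxin-induced root-initiation genes were expressed in roots at levels that the test did not separate by genotype. LOC_Os03g05510 (named LBD29 in the table; chromosome 3, 2726696 to 2727559, minus strand) is, from background knowledge, CROWN ROOTLESS 1, the rice gene needed to form crown roots. It was at 6.52, 6.28 and 7.21 CPM in the OX6 root libraries, against 6.63, 6.04 and 5.43 CPM in the WT root libraries, and the groups overlapped. Its log2 fold change was 0.15 (SE 0.124, adjusted p = 0.682). In shoots it had 2, 5 and 2 counts in the OX6 libraries and 0, 5 and 2 counts in the WT libraries. Roots were 68.1-fold above shoots in OX6 and 93.8-fold in WT by the fit, values that rest on these few shoot counts: the log2 fold change was 6.09 in OX6, but 6.73 without OX6 shoot replicate 2, and 6.55 in WT, but 7.36 without WT shoot replicate 2.

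Its neighbour LOC_Os03g05500 (LBD16; chromosome 3, 2723035 to 2723936, plus strand) lies on the opposite strand, with 2759 bases between the genes. It was at 41.1, 40.1 and 42.5 CPM in the OX6 root libraries, against 38.6, 35.0 and 33.8 CPM in the WT root libraries. In shoots it was at 1.32, 0.563 and 1.34 CPM in the OX6 libraries, against 1.43, 1.62 and 1.69 CPM in the WT libraries. OX6 was thus above WT without overlap in roots and below it without overlap in shoots, yet neither difference passed the test. The log2 fold changes were 0.21 (SE 0.0714, adjusted p = 0.172) in roots and -0.55 (SE 0.406, adjusted p = 0.526) in shoots, and their difference of 0.74 had an adjusted p of 0.18. Roots stood 37.5-fold above shoots in OX6 and 22.5-fold in WT (adjusted p = 1.29e-14 and 4.35e-14).

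The other models named LBD29 were low. LOC_Os02g57490 averaged 3.47 ± 0.81 CPM in OX6 roots and 3.66 ± 0.408 in WT roots, and had 10 counts in the OX6 shoot group and 7 in the WT shoot group. LOC_Os08g44940 averaged 1.26 ± 0.382 CPM in OX6 roots and 1.48 ± 0.488 in WT roots. In shoots LOC_Os08g44940 had 2, 2 and 1 counts in the OX6 libraries, against 27, 15 and 10 counts in the WT libraries, and the groups did not overlap. It was too low for the shoot test. In 1 fit of all 12 libraries, which keeps it through its root counts, the shoot log2 fold change was -3.16. It was called lower in OX6 shoots in that fit (adjusted p = 0.00964 by edgeR). These values are a description and no test of the shoots, as the gene was also singled out after its values were seen. The difference between root and shoot effects was 2.93 (SE 0.844, adjusted p = 0.0919) and was not called.

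Shoot-side members were the LBD6 homologues of AS2, which in Arabidopsis helps to set the upper side of the leaf. LOC_Os05g34450 (LBD6; chromosome 5, 20414858 to 20418535, minus strand) was at 7.65, 9.67 and 5.91 CPM in the OX6 shoot libraries, against 4.72, 7.62 and 4.21 CPM in the WT shoot libraries. The groups overlapped, and the log2 fold change of 0.47 (SE 0.239, adjusted p = 0.307) did not pass the test. It had 0 counts in the OX6 root libraries and 1 count in 1 WT root library. The level in OX6 shoots was at least 331-fold that in OX6 roots, with a floor of 3 counts over the group. In WT the shoot level was 761-fold the root level, which rests on that 1 root count and has a 95% counting interval of 136 to 30100.

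LOC_Os01g66590 (LBD6; chromosome 1, 38676217 to 38679707, plus strand) is, from background knowledge, the rice counterpart of the maize gene INDETERMINATE GAMETOPHYTE 1. It was at 4.41, 3.10 and 3.22 CPM in the OX6 shoot libraries, against 2.62, 2.56 and 3.06 CPM in the WT shoot libraries. The lowest OX6 value lay just above the highest WT value, and the log2 fold change of 0.38 (SE 0.256, adjusted p = 0.472) did not pass the test. In roots it had 6, 8 and 2 counts in the OX6 libraries and 6, 17 and 22 counts in the WT libraries, too few to be tested there. Roots stood 28.2-fold below shoots in OX6 and 7.76-fold below in WT (adjusted p = 2.36e-08 and 2.30e-06), a difference between genotypes of -1.86 that the interaction test did not call (adjusted p = 0.158).

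LOC_Os01g07480 (named LATERAL ORGAN BOUNDARIES; chromosome 1, 3551044 to 3553146, minus strand) is, from background knowledge, the rice counterpart of the maize inflorescence gene RAMOSA 2. It was at 8.22, 7.79 and 7.48 CPM in the OX6 root libraries, against 7.98, 10.0 and 8.51 CPM in the WT root libraries. In shoots it was at 1.29, 2.43 and 2.19 CPM in the OX6 libraries, against 2.66, 2.52 and 2.62 CPM in the WT libraries, where each OX6 library lay below each WT library. Neither the root log2 fold change of -0.17 (SE 0.113, adjusted p = 0.568) nor the shoot one of -0.41 (SE 0.307, adjusted p = 0.537) passed the test. It stood 4.001-fold higher in roots than in shoots in OX6 and 3.40-fold in WT (adjusted p = 6.78e-08 and 2.13e-07).

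Further class I models gave a graded set of organ contrasts. LOC_Os05g27980 (LBD12) was 35.3-fold higher in roots than in shoots in OX6 and 19.0-fold in WT, LOC_Os05g07270 (LBD15) 28.3- and 16.9-fold, and LOC_Os03g41600 (LBD36) 8.12- and 10.2-fold. The sizes of these folds rest on few shoot counts. LOC_Os05g07270 had 0, 5 and 8 counts in the OX6 shoot libraries, against 0, 22 and 4 in the WT shoot libraries, and LOC_Os05g27980 had 7, 8 and 0, against 0, 24 and 11. The log2 fold change of root over shoot of LOC_Os05g07270 was 4.83 in OX6, but 4.21 without OX6 shoot replicate 1 and 5.59 without OX6 shoot replicate 3, and it was 4.08 in WT, but 5.71 without WT shoot replicate 2. That of LOC_Os05g27980 was 5.14 in OX6, but 5.73 without OX6 shoot replicate 2, and 4.25 in WT, but 4.93 without WT shoot replicate 2. For LOC_Os03g41600 the OX6 value was 3.02, but 3.64 without OX6 shoot replicate 3. Each of these contrasts stayed called without these libraries. LOC_Os01g60960 (LBD15) and LOC_Os03g14270 (LBD30, known in Arabidopsis as JAGGED LATERAL ORGANS) were 3.74- and 2.97-fold higher in roots in OX6 and 2.51- and 2.46-fold in WT. None of these was called between the genotypes. The nearest in roots was LOC_Os03g14270, at 4.67, 4.08 and 4.25 CPM in the OX6 libraries, against 3.23, 3.65 and 3.08 CPM in the WT libraries, without overlap (log2 fold change 0.39, SE 0.149, adjusted p = 0.237). LOC_Os01g60960 was at 1.12, 1.23 and 1.22 CPM in the OX6 shoot libraries, against 2.48, 2.03 and 1.40 CPM in the WT shoot libraries, again without overlap (log2 fold change -0.73, SE 0.354, adjusted p = 0.282).

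A few low members leaned to the shoot or to neither organ, and LOC_Os07g40000, a high member, leaned slightly to the root. LOC_Os12g01550 (LBD12) had log2 fold changes of root over shoot of -1.62 in OX6 and -2.21 in WT, both called. Its copy LOC_Os11g01550 (LBD12) had -0.90 in OX6, which was called (adjusted p = 0.00761), and -0.54 in WT, which was not (adjusted p = 0.093). The short-arm ends of chromosomes 11 and 12 are near-identical duplicates in rice, so the split of reads between this pair is uncertain. LOC_Os05g03160 and LOC_Os03g45750 (both LBD4), LOC_Os10g07510 (LBD18) and LOC_Os01g14030 (LBD2) were called between the organs in neither genotype in the main fit. In WT some alternatives called further members lower in roots. These were LOC_Os01g14030 by limma-voom (-2.03) and without WT root replicate 3 (-3.515), and LOC_Os03g45750 without WT shoot replicate 2 (-0.84). LOC_Os11g01550 was so called without WT shoot replicate 1 (-0.70). LOC_Os07g40000, at 1.28-fold higher in roots in OX6 and 1.23-fold in WT (adjusted p = 0.0109 and 0.0307), lost its call without OX6 root replicate 2 in OX6 and without WT root replicate 2, WT shoot replicate 1 or WT shoot replicate 3 in WT, and the WT call also in a fit of the 6 WT libraries (0.21).

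The model named calcium-transporting ATPase 8 (LOC_Os08g40530; chromosome 8, 25652018 to 25659725, minus strand) carries the LOB domain in its description beside its pump name. It was at 63.9, 65.1 and 66.0 CPM in the OX6 root libraries, against 63.4, 56.5 and 59.3 CPM in the WT root libraries. In shoots it was at 22.5, 23.2 and 29.1 CPM in the OX6 libraries, against 22.8, 26.6 and 22.5 CPM in the WT libraries. It was not called between the genotypes (root log2 fold change 0.12 with adjusted p = 0.436, shoot log2 fold change 0.05 with adjusted p = 0.888). A model named LBD12 but listed without the domain lies 375 bases away on the opposite strand, and whether the domain belongs to the pump was not tested.

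Genes linked to LOB proteins by background knowledge were counted in 7 lists drawn from names in the table, in the same fits. For the hypoxia list the link is only shared induction by low oxygen. The auxin side comprised auxin response factors, Aux/IAA repressors and PIN efflux carriers. Of 24 auxin response factors tested in roots and 25 in shoots, edgeR called 0, as did DESeq2 and limma-voom, and 2 in each organ had an unadjusted p under 0.05. Their most abundant member per length, auxin response factor 12 (LOC_Os02g46710), averaged 23.8 ± 2.12 CPM in OX6 roots and 26.8 ± 2.09 in WT roots. In shoots it averaged 26.4 ± 0.826 CPM in OX6 and 29.1 ± 7.26 in WT. The list's median log2 fold change was 0.0026 in roots and 0.033 in shoots. At the shares called over all genes, 2.83% in roots and 5.64% in shoots, 0 calls in a list of this length is near the background.

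Aux/IAA repressors bind and silence auxin response factors until auxin removes them. By edgeR, 1 of 29 tested models was called higher in OX6 roots and 4 of 29 in OX6 shoots. In either organ 0 were called lower. Over all genes tested, 1.19% were called higher in roots and 3.18% higher in shoots. In shoots DESeq2 called 5 higher and 1 lower, and limma-voom 4 higher and 0 lower. At an unadjusted p under 0.05, 8 were higher and 1 lower in OX6 roots, and 10 were higher and 2 lower in OX6 shoots. Over all genes, 3622 of 26574 tested in roots and 4885 of 26251 in shoots had such a p by edgeR. In shoots, IAA6 (LOC_Os01g53880) averaged 27.1 ± 1.69 CPM in OX6 and 13.1 ± 2.6 in WT (log2 fold change 1.04, adjusted p = 2.00e-04), and IAA14 (LOC_Os03g58350) 35.5 ± 4.64 CPM in OX6 and 17.96 ± 2.65 in WT (0.98, adjusted p = 0.000182). IAA13 (LOC_Os03g53150) rose in both organs, with log2 fold changes of 0.30 in roots (adjusted p = 0.0331) and 0.48 in shoots (adjusted p = 0.00894), and IAA24 (LOC_Os07g08460) rose in shoots by 0.49 (adjusted p = 0.0106). The median log2 fold change of the list was 0.053 in roots and 0.16 in shoots. The calls of IAA6 and IAA14 held in the 14 alternatives tried, as did the direction of IAA13 and IAA24. The IAA13 call was lost without any 1 of the root libraries other than OX6 root replicate 2 and without OX6 shoot replicate 2 or 3, and the IAA24 call without OX6 shoot replicate 2 or 3 or WT shoot replicate 2.

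Of 12 PIN efflux carriers tested in each organ, 1 was called lower in OX6 roots by edgeR and by limma-voom, and 2 by DESeq2. Over all genes, edgeR called 1.64% lower in roots. In shoots edgeR, DESeq2 and limma-voom called 0, with 0 at an unadjusted p under 0.05. PIN5b (LOC_Os09g32770) averaged 8.17 ± 0.453 CPM in OX6 roots and 12.7 ± 1.03 in WT roots (log2 fold change -0.63, adjusted p = 0.00163, or 0.233 in 1 fit of the 12 libraries, the highest of the 14 alternatives). In shoots the most abundant carrier was PIN1a (LOC_Os02g50960), at 49.1 ± 3.05 CPM in OX6 and 45.4 ± 4.04 in WT. The carriers' median log2 fold change was 0.015 in roots and -0.29 in shoots. The WUSCHEL-related homeobox and root-initiation list had 4 models tested in roots and 3 in shoots, and 0 called by the same 3 tools. Of these, 2 had an unadjusted p under 0.05 in roots and 0 in shoots. Beside 2.83% of all genes called by edgeR in roots and 5.64% in shoots, 0 calls in so short a list is near the background. WOX8 (LOC_Os01g60270), its most abundant, averaged 17.5 ± 0.373 CPM in OX6 roots and 17.2 ± 0.981 in WT roots, and 12.5 ± 0.794 CPM in OX6 shoots and 12.6 ± 0.663 in WT shoots. This list's median was -0.24 in roots and -0.014 in shoots.

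The list of KNOX and AS1-type regulators holds the knotted-1-like homeobox models, a family that includes the meristem genes silenced by LBD6-type proteins in Arabidopsis and maize, and the rough sheath 2 homologue, whose maize namesake helps to silence them. It had 1 of 9 tested models called lower in OX6 roots and 1 of 14 called higher in OX6 shoots. Over all genes tested, 1.64% were called lower in roots and 3.18% higher in shoots. DESeq2 and limma-voom each called 1 lower in roots and 1 higher in shoots. At an unadjusted p under 0.05 by edgeR, 1 was higher and 2 lower in roots, and 1 higher and 1 lower in shoots. Over all genes, 3622 of 26574 tested in roots and 4885 of 26251 in shoots had such a p. In roots, knotted-1-like 1 (LOC_Os01g19694) averaged 8.55 ± 0.201 CPM in OX6 and 11.1 ± 0.234 in WT (log2 fold change -0.38, adjusted p = 0.0428). In shoots, knotted-1-like 3 (LOC_Os03g03164) averaged 61.3 ± 3.55 CPM in OX6 and 44.5 ± 7.57 in WT (0.46, adjusted p = 0.0303). The list's median was -0.095 in roots and -0.087 in shoots. The root call was lost without any 1 of the 6 root libraries, and the shoot call without any 1 of the shoot libraries other than WT shoot replicate 2.

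Nitrate assimilation and high-affinity uptake genes, of which LBD37 to LBD39 repress some in Arabidopsis, had 2 of 10 tested models called lower in OX6 roots. In OX6 shoots 2 of 11 were called higher and 1 lower. Over all genes tested, 1.64% were called lower in roots, and 3.18% higher and 2.46% lower in shoots. DESeq2 and limma-voom each called 3 lower in roots, and 2 higher and 1 lower in shoots. At an unadjusted p under 0.05 by edgeR, 0 were higher and 5 lower in roots, and 3 higher and 1 lower in shoots. Over all genes, 3622 of 26574 tested in roots and 4885 of 26251 in shoots had such a p. The nitrate reductase LOC_Os02g53130, which makes the first reduction of nitrate, averaged 131 ± 6.48 CPM in OX6 roots and 194 ± 12.7 in WT roots (log2 fold change -0.56, adjusted p = 9.13e-05). In shoots it averaged 55.5 ± 2.96 CPM in OX6 and 9.44 ± 2.37 in WT (2.56, adjusted p = 8.03e-09). This gene and LOC_Os03g41330 were both called higher in OX6 shoots, and whether they are linked was not tested.

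The second nitrate reductase, LOC_Os08g36480, averaged 174 ± 3.83 CPM in OX6 shoots and 113 ± 26.5 in WT shoots (log2 fold change 0.63, adjusted p = 0.0113, lost without OX6 shoot replicate 1 or 3). The transporter NRT2.4 (LOC_Os01g36720) averaged 4.17 ± 0.269 CPM in OX6 shoots and 9.38 ± 2.92 in WT shoots (-1.17, adjusted p = 0.00324). Nitrite reductase (LOC_Os01g25484) fell in OX6 roots by 0.26 on the log2 scale (adjusted p = 0.0463), a call lost without any 1 of the root libraries other than OX6 root replicate 2. The list's median log2 fold change was -0.36 in roots and 0.18 in shoots.

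Hypoxia response enzymes, induced by low oxygen together with LBD41 in Arabidopsis, had 0 of 17 tested models called in roots by edgeR or limma-voom, beside 2.83% of all genes by edgeR, while DESeq2 called 1 higher and 1 lower. A count of 0 is near that share for a list of this length. At an unadjusted p under 0.05, 3 were higher and 2 lower in OX6 roots, and the list's median log2 fold change was -0.26. Non-symbiotic hemoglobin 1 (LOC_Os03g13140), the most abundant, averaged 1569 ± 84.2 CPM in OX6 roots and 1736 ± 157 in WT roots (log2 fold change -0.14, adjusted p = 0.443). In shoots 1 of 12 was called lower in OX6 by edgeR, beside 2.46% of all genes. This was non-symbiotic hemoglobin 2 (LOC_Os03g12510), which averaged 1.63 ± 0.388 CPM in OX6 and 3.79 ± 1.65 in WT (-1.23, adjusted p = 0.0419). Its call was lost without any 1 of the shoot libraries other than WT shoot replicate 1. The list's median in shoots was -0.13.

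**Figure D5:**
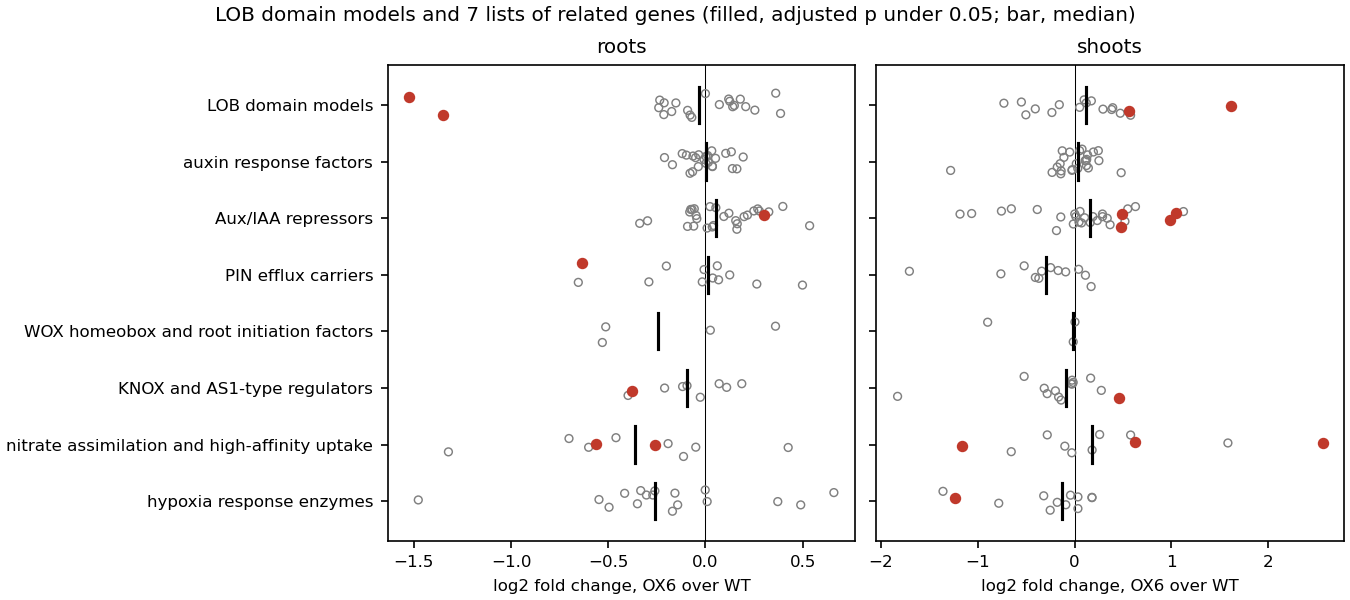
Log2 fold change of OX6 over WT of each tested gene (points) in the LOB domain models and 7 lists of related genes, in roots (left) and shoots (right), with the median of each list (bar). Filled points have an adjusted p under 0.05. The LBD41 models at -1.52 and -1.35 are the 2 filled points of the LOB row in roots, and the nitrate reductase LOC_Os02g53130 at 2.56 is the filled point farthest to the right in shoots.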

How the data were processed

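The deposited table gives raw read counts per gene for 12 libraries, and the submitters' processing notes list HISAT2 2.0.5 and, for the counts of the authors, featureCounts 1.5.0-p3. Which build, gene annotation and strand option were used is not given in the sources used here, so coordinates are those of the file and reads of overlapping, antisense or near-identical genes may be shared. Groups and replicate numbers came from the sample titles, whose letter P the labels do not explain.

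Genotypes were compared in 1 fit of 6 libraries per organ, and the interaction and organ contrasts in 1 fit of 12, with edgeR 4.0.16 (R 4.3.3): TMM scaling, filterByExpr (minimum count 10, minimum total 15), robust quasi-likelihood tests, two-sided, and Benjamini-Hochberg adjustment over all genes tested (26574 in roots, 26251 in shoots, 29042 in the 12-library fit). Standard errors were derived as the size of the log2 fold change divided by the square root of F. CPM were scaled over the 12 libraries, so ratios of their means differ slightly from fitted folds. Fits were tested on simulated counts with the same spread for all genes and with changes in well-counted genes only. Recovery of changes in members of low count was thus not tested. No pair of replicates agreed within sampling noise. The share of all genes whose groups do not overlap is not given here. A lack of overlap in a gene that was not called is therefore a description only.

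Values by library are given for LOC_Os01g32770, called members, the 3 loci with a known rice or maize role, the 5 highest members per organ and the 3 of smallest adjusted p, and for the ATPase model and 3 members singled out after their values were seen (LOC_Os03g14270, LOC_Os01g60960 and LOC_Os08g44940). The members and lists were chosen with earlier results of these data known. Lists were matched on the first protein name in the file, and no list was tested as a set. Alternatives were RLE and upper-quartile scaling, 2 other count filters, DESeq2 1.42.0, limma-voom (limma 3.58.1), a replicate block, other sets of libraries in the fit and each library left out. Same-numbered OX6 and WT libraries did not deviate together (correlations of -0.0594 to 0.0509), so the numbers were not used as pairs.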

Additional observations from a re-analysis of the deposited data

Results flagged for a closer look

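The genotype difference of 2 members differed between the organs by the interaction test of edgeR in 1 fit of the 12 libraries. For LOC_Os01g32770 (LBD41) the root log2 fold change minus the shoot log2 fold change was -2.09, with lower levels in OX6 roots and higher levels in OX6 shoots than in WT. For LOC_Os03g41330 (LBD37) it was -1.86, with the difference from WT called in shoots and not in roots. Both are class II LOB models, and both stood higher in roots than in shoots in WT.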

How the results depend on the processing

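Of 940 values recomputed under an alternative, 860 kept their direction and their side of the threshold, or stayed within 1.5 times as counts. The count of called LOB models in roots was 2 in each alternative. With 1 library left out at a time, it was 1 to 2 in shoots, and calls over all genes were 407 to 773 in roots and 708 to 1877 in shoots, and over the lists 2 to 7 in roots and 4 to 11 in shoots. Counts over all genes moved by over 1.5 times without WT root replicate 2 or 3 or any 1 of the OX6 shoot libraries, and list counts without WT root replicate 1 or 2 or OX6 shoot replicate 2 or 3. In 1 fit of all 12 libraries, all genes called were 293 in roots and 2459 in shoots, and list genes 2 in roots and 15 in shoots. The LOB models called in that fit were 2 in roots and 3 in shoots, LOC_Os08g44940 being the added one. DESeq2 called 9 list genes in roots. DESeq2 also called 4 LOB models and 1207 genes in the interaction. The 12-library fit ended the root calls of IAA13, PIN5b, knotted-1-like 1 and nitrite reductase, nitrite reductase being lost too with upper-quartile scaling and the CPM filter, and limma-voom ended the shoot call of non-symbiotic hemoglobin 2. Why these values moved was not tested. A fit with a library left out also has fewer samples, and its calls over all genes fell in some cases and rose in others. Signs turned for LOC_Os07g40000 in roots (log2 fold change -0.17 to 0.022 with a library left out) and for LOC_Os08g40530 in shoots (-0.074 to 0.14), neither being called. With a replicate block, LOB calls were 2 in roots, 2 in shoots, 2 in the interaction, 20 between OX6 organs and 19 between WT organs, and all genes called were 796 in roots, 1454 in shoots and 471 in the interaction. The block ended the root call of knotted-1-like 1 (LOC_Os01g19694, adjusted p = 0.0717, within a range of 0.0336 to 0.495) and no other call printed for a single gene. Upper-quartile scaling moved the median log2 organ difference of all genes to 0.18 in OX6 and 0.15 in WT, against 0.029 and 0.048. With it, LOB calls between the organs were 21 in OX6, against 20 in the main fit, and stayed at 19 in WT. Without division by length, 4 of the 5 highest members in roots and 5 of 5 in shoots were shared. Too few counts for a test were found for 12 of 37 members even with 12 libraries in the fit. For these, limited depth and absence of the RNA cannot be told apart. Their levels show neither a difference nor its absence.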

Other observations

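Beside the members, 3 models carry a LOB name in the table without the LOB domain in their description, and they were looked at after their values were seen. LOC_Os08g40520 (named LBD12; chromosome 8, 25648884 to 25651642, plus strand) lies 375 bases from the ATPase model LOC_Os08g40530, on the opposite strand. It had 50, 63 and 75 counts in the OX6 root libraries, against 3, 11 and 8 counts in the WT root libraries, with no overlap. That is 1.44 ± 0.211 CPM in OX6 roots and 0.172 ± 0.0942 in WT roots (SD, n = 3; log2 fold change 3.06, SE 0.404, adjusted p = 0.00027 by edgeR's quasi-likelihood test). The log2 fold change stayed between 2.69 and 3.46 in the 14 alternatives tried, and the call was lost in 1 fit of the 12 libraries (adjusted p = 0.081, the highest of the 14). Shoots had 2, 0 and 12 counts in the OX6 libraries and 0, 1 and 5 counts in the WT libraries, too few for a test. LOC_Os02g21390 and LOC_Os04g33250 had 0 counts in the 12 libraries.

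The share of the family's RNA that came from the 2 models named LBD41 was 11.95 ± 0.192% of the summed CPM per kb in OX6 roots, 26.5 ± 2.46% in WT roots, 18.2 ± 1.21% in OX6 shoots and 16.1 ± 2.84% in WT shoots. The 3 models named LBD37 together summed to 150 ± 17.6 CPM per kb in OX6 roots, 172 ± 24.1 in WT roots, 69.9 ± 7.84 in OX6 shoots and 52.1 ± 1.95 in WT shoots. These shares and sums were not tested.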
